A study of Homo sapiens with 7 samples.

Results

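The genes described here encode regulators of pre-mRNA splicing and their relatives, and were chosen by name alone. A row of the deposited table was a member if its gene symbol began with SFRS or SRSF (SR proteins), HNRNP, RBM, SRRM, PTBP, TRA2, CELF, CUGBP or ELAVL. HNRNPA2B1, HNRNPC, RBM15 and RBM15B were left out. The rule took 103 of the 25918 rows of the table, each row being 1 annotated transcript, and these belonged to 99 gene symbols. By family there were 53 RBM rows, 22 SFRS and TRA2 rows, 18 HNRNP rows, 4 ELAVL rows and 2 rows each of SRRM, PTBP and CUGBP.

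N6-methyladenosine (m6A), a methyl mark on adenosines inside messenger RNA, was mapped in cells that received no treatment. Their label is HepG2, a line from a human hepatocellular carcinoma, and they grew in DMEM with serum. Poly(A)-selected RNA was fragmented to about 100 nt. The 7 libraries were 4 precipitated with an anti-m6A antibody and 3 inputs that saw no antibody. The authors gave 1 list of peaks, without values per library and without naming the libraries that entered. No value thus had a replicate, no test of precipitated against input RNA could be made, and library depth is unknown. Intervals below are 95% Wilson intervals and cover counting error in this list only.

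SR proteins carry RNA recognition motifs and a tail rich in arginine and serine, and as a rule promote the inclusion of exons they bind. The hnRNP proteins coat nascent transcripts, often repress exons, and also act in RNA export and decay. RBM is a naming class rather than a family of common descent, and holds core spliceosome partners, alternative splicing factors and proteins of ribosome synthesis. Many of these proteins control their own level through splicing of their own transcripts. The enzyme complex that writes m6A is known to act chiefly within the sequence RRACH, where R stands for a purine and H for any base except G. The mark is known to be sparse near exon junctions and dense in long exons and near stop codons.

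The table gives each transcript an expression quantile, which ranks it between 0 and 1, and each peak a position counted from the transcript's 5' end, its exon, its segment and a score. The score is the authors' own, without a stated scale, and no peak in the table was under 2.00. Of the 13 hepatocyte markers looked up, 7 stood at the lowest quantile of the table (0.314), among them the plasma proteins ALB, AFP, TTR, SERPINA1, APOB and APOH and the transcription factor FOXA2, and the highest was FGB at 0.619. Of 6 genes of Müllerian or ovarian epithelium none stood at the lowest quantile, and their median was 0.582. KRT7 stood at 0.998, MSLN at 0.968 and MUC16 at 0.667, while PAX8 stood at 0.496, EMX2 at 0.374 and WT1 at 0.333. The cells are called by their label here, and the part of these levels in the results below was not tested.

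The strongest peaks of the 10 highest-scoring members are shown first, as the RRACH site closest to the listed position. Each stretch is 25 nt of the matched GENCODE release 29 transcript, 5' to 3', with T for U and the RRACH pentamer in capitals. No adenosine was identified by the assay itself, so each is a candidate site.
RBM12, coding sequence: tgccacagaaAGACAgtgggtagct
RBM35B, 3' UTR: tggacctcagAGACCatgttgtgcc
RBM16, stop codon: aaatacagagAGACAtgctcagcca
HNRNPH2, coding sequence: ctttgaagaaGGACAgagaaaccat
RBM17, stop codon: atccttaaatGAACTgcaggctgag
RBM22, stop codon: aaggatcgatGGACCgtaaataagc
SFRS15, stop codon: tcctcgttagAGACTggaatttgtg
RBM28, stop codon: gaggtgccctGGACTgtgtacatct
RBM33, stop codon: cagaggagccGAACTgacaggacac
SRRM2, coding sequence: caacagcagtGAACCtggctgactc

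RBM12, an RNA-binding protein whose coding sequence lies in a single exon, had the highest score of all members, 5.76, at position 1429 in exon 3 (6388 nt). It had a second peak of 4.37 in that exon, 918 nt upstream, and one of 2.52 at the transcript start. Its transcript spans chromosome 20, 33700293 to 33716262, on the minus strand (coordinates are those of the table, counted from 1, and its build is not stated). RBM35B, now ESRP2, an epithelial splicing regulator (chromosome 16, 66819951 to 66827637, minus), scored 5.50 in the 3' UTR and 3.75 at its stop codon, 360 nt upstream. RBM16, now SCAF8, which binds the tail of RNA polymerase II (chromosome 6, 155096204 to 155196886, plus), scored 5.48 at its stop codon and 5.01 in the coding sequence, both in exon 20 (2122 nt). HNRNPH2, a binder of runs of G (chromosome X, 100549847 to 100555773, plus), scored 5.42 in the coding sequence. The highest peaks of these 4 genes lay between the 96.2 and 98.1 percentiles of all 12769 peaks of the table.

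The other 6 followed closely. RBM17, a spliceosome-associated factor in the choice of 3' splice sites, scored 5.28, and RBM22, a component of the activated spliceosome, 5.16. SFRS15, now SCAF4, a relative of RBM16 that also binds RNA polymerase II, scored 4.76. RBM28, a nucleolar protein of ribosome synthesis, scored 4.74, and RBM33 scored 4.63. SRRM2, a scaffold of nuclear speckles, scored 4.55. Of the 10 sites, 6 lay around the stop codon (the authors' segment, which recomputed as within 200 nt of it), 3 in the coding sequence and 1 in the 3' UTR. The distance from listed position to printed site was 16 nt or less in all but RBM28, where it was 31 nt. Since the closest site was the one printed, short distances are in part by construction.

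**Figure D1:**
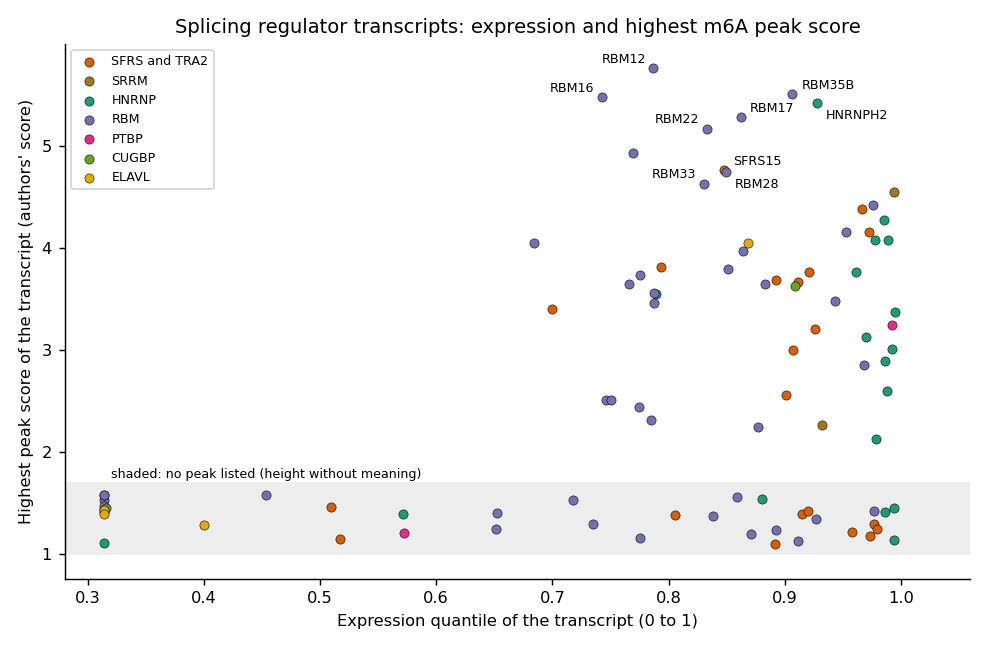
Expression quantile of each member transcript (x axis, 0 to 1) against its highest peak score (y axis, authors' score), coloured by symbol prefix, for the 93 rows off chromosome Y. Points in the shaded band have no listed peak, and their height there has no meaning. Members with a peak start at a quantile of 0.684, and the highest scores (RBM12 at 5.76, RBM35B at 5.50) lie below the most expressed genes.

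Of the 103 member rows, 53 had at least 1 peak (51.5%, interval 41.9 to 60.9%), where 27.9% of all rows of the table did. The 53 rows stood for 51 symbols and carried 92 peaks. Members were strongly expressed as a group, with a median quantile of 0.849 against 0.591 for all coding rows, and in the whole table the share with a peak is higher at high expression, up to a quantile of 0.7 to 0.9. Among coding rows the members' share was 53 of 100 against 35.0%, and above the lowest quantile 53 of 85 (62.4%, 51.7 to 71.9%) against 45.8%. The excess over all rows was no larger than expression gives. Weighting the other coding rows by the members' expression, in bins of 0.1, gave 53.9 rows with a peak where 53 were found. Above a quantile of 0.9 the shares were 27 of 39 members (69.2%) and 69.3% of all coding rows. Between 0.7 and 0.9 they were 24 of 34 members (70.6%) and 68.3% of all coding rows.

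RBM7, a subunit of the nuclear exosome targeting complex, was the least expressed member with a peak, at a quantile of 0.684 (score 4.05, stop codon). By that choice, none of the 10 rows below it and above the lowest quantile had a peak. Of other coding rows, 3.94% had one at quantiles of 0.4 to 0.5, 28.4% at 0.5 to 0.6 and 52.1% at 0.6 to 0.7. The 18 member rows at the lowest quantile had no peak, and no row of the table has one there. A missing peak therefore says little for weakly expressed members. Above 0.9, 12 of 39 members had none, a share like that of other coding rows (764 of 2492).

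**Figure D2:**
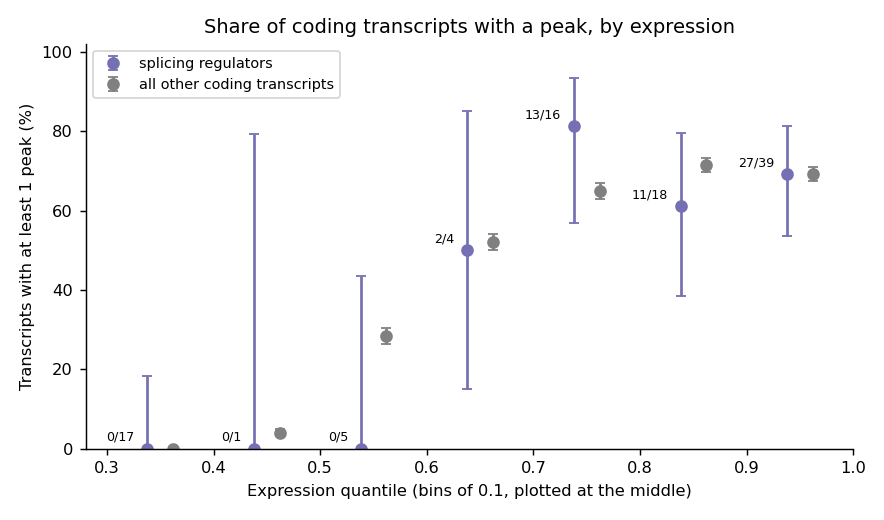
Share of coding transcripts with at least 1 peak (y axis, %) in bins of expression quantile (x axis), for splicing regulators and for all other coding transcripts, with 95% Wilson intervals. Numbers give member rows with a peak over all member rows in the bin. The intervals of members hold the value of the other transcripts in every bin, with 27 of 39 rows against 69.3% in the highest.

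Among the 53 members with a peak, 26 had 1 peak, 19 had 2, 6 had 3 and 2 had 5. The share with 3 or more was 15.1%, against 18.0% of all rows with a peak. The 92 scores ran from 2.03 to 5.76 with a median of 3.28, against 3.15 for all peaks of the table. The RBM peaks had the highest median of the larger families, at 3.56 (43 peaks), followed by SFRS and TRA2 at 3.23 (20 peaks) and HNRNP at 3.17 (18 peaks). The 6 SRRM peaks had a median of 2.37. RBM members with a peak were also less expressed (median quantile 0.830) than HNRNP members with one (0.982).

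Of the 10 classical SR rows, 6 had a peak, where their expression gave 6.78, and the 4 without were not those of lowest expression. SFRS4, now SRSF4, had a quantile of 0.973 and 2 peaks, of score 4.15 at the stop codon and 3.25 in the 3' UTR, both in exon 6 (1376 nt). SFRS5 (0.967) scored 4.38 at the stop codon in exon 8. SFRS6 (0.893) had 3.69 at the stop codon and 2.605 at the transcript start, and SFRS11 (0.921) had 3.77 at the stop codon. SFRS1, the first SR protein to be described as a splicing factor (0.911), had a single peak at the transcript start, with a score of 3.67 at position 178. SFRS2B, now SRSF8 (0.6998), had 2.07 in the coding sequence and 3.40 at the stop codon.

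SFRS9 (0.980), SFRS2 (0.977), SFRS7 (0.920) and SFRS3 (0.915) had no peak. SFRS9 and SFRS2 were thus more expressed than all 6 SR rows with a peak. The TRA2 proteins, which activate exons through purine-rich enhancers, had none either, with quantiles of 0.958 for SFRS10 (TRA2B) and 0.892 for TRA2A. In total 11 of the 22 SFRS and TRA2 rows had a peak, where their expression gave 13.9.

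Of the 12 SR-related rows, TRA2 included, 5 had a peak, where their expression gave 7.12. These 5 carried 11 peaks, 5 of them in SFRS2IP, and the 6 classical SR rows carried 9. SFRS2IP, now SCAF11, an SR-related partner of SR proteins, had 5 peaks at a quantile of 0.793. Its scores were 3.82, 3.25 and 2.26 in exon 11 (2718 nt), 2.69 at the stop codon and 2.07 at the transcript start. SFRS15 (0.848) had 2.03 in the coding sequence beside its stop codon peak, both in exon 20 (1121 nt). SFRS14, now SUGP2 (0.907), had 3.00 in exon 3 (1608 nt) and 2.76 in exon 5 (488 nt), and SFRS18, now PNISR (0.901), had 2.56 in exon 11 (1666 nt). SFRS8, now SFSWAP (0.926), had 3.21 at the transcript start. SFRS16 (0.973), SFRS12 (0.805), SFRS12IP1 (0.517) and SFRS17A (0.509) had none.

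The SRRM genes code for large scaffold proteins rich in serine and arginine. SRRM2 (0.994, chromosome 16, 2742331 to 2761414, plus) had 5 peaks, all in exon 11 (6701 nt), at positions 3985, 4487, 4916, 7066 and 7329 with scores of 3.06, 2.46, 2.27, 2.15 and 4.55. The highest thus lay farthest downstream. SRRM1 (0.932) had a single peak of 2.26, and it lay in an exon of only 90 nt.

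Of the 18 HNRNP rows, 12 had a peak, where their expression gave 11.4. HNRNPH2 (0.928) had 5.42 in exon 2 (2194 nt) and 2.97 at the transcript start. HNRNPF (0.986), its relative, had 4.27 and 3.93 in exon 4 (2320 nt), 359 nt apart. HNRNPH3 (0.962) had 3.76 at the transcript start and 3.21 at the stop codon. HNRNPH1, the most expressed of these 4 relatives at 0.994, had none.

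HNRNPM (0.989), a regulator of splicing in epithelial and mesenchymal cells, had 4.08 at the transcript start and 2.89 in exon 14 (803 nt). HNRNPR (0.977) had 4.08 at the stop codon and 2.25 at the transcript start. HNRNPA3 (0.789) scored 3.55 in the 3' UTR part of exon 11 (4550 nt), and HNRNPA0 (0.978) scored 2.13 in its only exon (2967 nt). The transcript start held the single peaks of HNRNPAB (0.995, score 3.38) and of HNRNPK (0.970, score 3.13), a binder of runs of C. HNRNPU (0.993), a nuclear scaffold protein that binds long noncoding RNA and chromatin, scored 3.01 at the stop codon. Its relatives HNRNPUL1 (0.989) and HNRNPUL2 (0.987) had their peaks in exon 1, with scores of 2.599 and 2.54 for the former and 2.89 for the latter.

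HNRNPD (0.994), which binds AU-rich elements and drives mRNA decay, HNRNPL (0.986), which binds CA repeats, and HNRNPA1 (0.881), a repressor of exons, had no peak. Neither did HNRNPA1L2 (0.571) and HNRNPCL1, the latter at the lowest quantile. HNRNPA1 has many near-identical copies in the genome, and how the authors treated reads shared between them is not stated.

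PTBP1, which binds pyrimidine tracts and represses exons (0.992), had 3 peaks, at 3.24 at the transcript start and 2.89 and 2.29 in the 3' UTR. PTBP2, its neuronal counterpart, stood at 0.572 without a peak. ELAVL1, also called HuR, a stabiliser of transcripts with AU-rich elements (0.868), scored 4.05 in the 3' UTR part of exon 6 (5235 nt). The neuronal ELAVL2, ELAVL3 and ELAVL4 stood at 0.314, 0.400 and 0.314 without a peak. CUGBP1, now CELF1 (0.909), scored 3.63 around the stop codon in exon 12 (167 nt), and CUGBP2 stood at 0.315 without a peak.

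Of the 53 RBM rows, 25 had a peak, where their expression gave 24.8, and 15 stood at the lowest quantile. Beside the members named above, RBM3, a cold-inducible RNA-binding protein (0.976), had 4.42 at the transcript start, the highest start score of all members. RBM14, a transcriptional coactivator of paraspeckles (0.953), had 4.16 in exon 2 (1465 nt), 3.46 at the transcript start and 2.22 in the 3' UTR. RBM6 (0.864), a splicing factor related to RBM5 and RBM10, had 3.97, 3.45 and 2.51, all in exon 3 (1279 nt). RBM4B (0.787) had 3.56, 2.92 and 2.31 within exon 3 (677 nt), 244 and 212 nt apart. RBM33 (0.830) had 4.42 in exon 14 (642 nt) and 2.21 in exon 5 (319 nt) beside its stop codon peak.

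RBM23 (0.851), RBM27 (0.766) and RBM7 had a single peak at the stop codon, with scores of 3.795, 3.64 and 4.05. RBM9, now RBFOX2, which binds UGCAUG and sets many alternative exons (0.877), also had 1 there, of 2.25. RBM47 (0.750) had 2.51 at the stop codon and 2.26 in the coding sequence. RBM19 (0.883), a nucleolar protein, had 3.65 and 3.14 in the 3' UTR. RBM41 (0.776) and RBMX2 (0.774) had coding sequence peaks of 3.74 and 2.45, and RBM12B (0.746) had 2.51 and 2.26. RBM39 (0.944), the target of aryl sulfonamide degraders, and RBM42 (0.969) had a start peak only, of 3.48 and 2.85.

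A further 13 RBM rows above the lowest quantile had no peak. The most expressed were RBM10 (0.977), RBMX (0.927), RBM5 (0.911), RBM25 (0.892), RBM8A, a core protein of the exon junction complex (0.871), RBM38 (0.859) and RBM26 (0.838). The RNA-binding RBMS genes had none, at 0.775 for RBMS2, 0.717 for RBMS1 and 0.652 for RBMS3. RBM35A, now ESRP1, the paralogue of RBM35B, stood at the lowest quantile, as did RBM11, RBM24, RBM44, RBM46 and RBMXL2.

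By segment, the 92 member peaks lay in the coding sequence in 38 cases (41.3%, interval 31.8 to 51.5%), around the stop codon in 26 (28.3%, 20.1 to 38.2%) and at the transcript start, the first 200 nt, in 16 (17.4%, 10.998 to 26.4%). The 3' UTR held 11 (11.96%, 6.81 to 20.2%), and the rest of the 5' UTR 1, in RBM34. Among 12332 peaks of other transcripts the shares were 36.6% for the coding sequence, 27.6% for the stop codon, 12.5% for the transcript start and 20.6% for the 3' UTR. The 3' UTR share of the members was thus below that of other transcripts and the interval of the former ended just short of the latter. No test was made of these differences, since peaks of 1 transcript are not independent.

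The shares differed with expression. Above a quantile of 0.9, the coding sequence held 18 of 44 member peaks (40.9%, 27.7 to 55.6%) against 22.9% of 2971 peaks of other transcripts, and the stop codon 8 (18.2%, 9.51 to 31.96%) against 28.004%. At or below 0.9 the coding sequence shares were 41.7% of 48 member peaks and 40.9% of other peaks, and those of the stop codon 37.5% (25.2 to 51.6%) and 27.5%. SRRM2 alone gave 5 of the 18 coding sequence peaks above 0.9. Of the 16 start peaks of members 13 were above 0.9 (81.3%), against 44.5% of 1536 start peaks of others, and the members were also the more expressed. Above 0.9 the start held 29.5% of member peaks (18.2 to 44.2%) and 23.0% of others. A start peak was the only one of 7 rows.

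**Figure D3:**
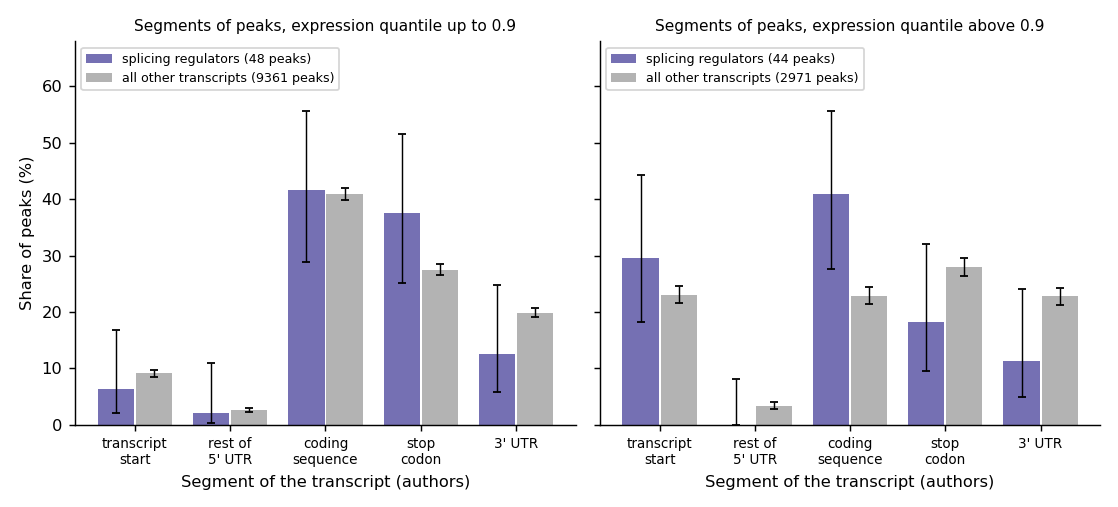
Share of peaks (y axis, %) by transcript segment (x axis) for splicing regulators and all other transcripts, at expression quantiles up to 0.9 (left) and above 0.9 (right), with 95% Wilson intervals. Above 0.9 the coding sequence holds 40.9% of member peaks and 22.9% of the others, and up to 0.9 it holds 41.7% and 40.9%.

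Stop codon peaks had the highest median score among members, 3.76, followed by 3' UTR peaks at 3.31, start peaks at 3.23 and coding sequence peaks at 2.89. For other transcripts the medians were, in the same order, 3.45, 3.21, 2.72 and 3.14. Coding sequence peaks of members thus had the lowest median of these segments, and the difference from other transcripts was not tested. RBM12, HNRNPH2 and RBM16 (5.76, 5.42 and 5.01) were at the upper end and SFRS15, SFRS2B and HNRNPA0 (2.03, 2.07 and 2.13) at the lower end.

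Coding sequence peaks of the members lay almost always in long exons. Of the 38 such peaks, 36 lay in exons of at least 400 nt (94.7%, 82.7 to 98.5%), as did 91.4% of the 4509 coding sequence peaks of other transcripts. The exceptions were SRRM1 (90 nt) and RBM33 (319 nt). The length of 400 nt came from an earlier analysis of this table.

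The gene structures gave a second view, with exon lengths taken without use of the peaks. It is not independent of the first, since the length of 400 nt and the coding sequence peaks counted are the same. The longest stretch of coding sequence in 1 exon was taken from GENCODE, per gene, for the 73 member rows above a quantile of 0.7. All 26 rows with at least 400 nt had a peak, against 86.8% of all such rows of the table. A coding sequence peak was found in 21 of them (80.8%, 62.1 to 91.5%), against 61.1% of all such rows. One of the 21, SRRM1, had it in its exon of 90 nt, not in the long one. With only peaks in exons of at least 400 nt counted, the shares were 20 of 26 (76.9%) and 59.7% of all such rows. Of the 47 rows with shorter coding exons, 25 had a peak (53.2%), against 60.5% of all such rows. Only 1, HNRNPUL1, had one in the coding sequence, against 5.54% of all such rows, and the table gives that exon 584 nt with its untranslated part. The median expression quantiles of these groups of members were close, at 0.904 and 0.909. Their coding sequences did differ in length, with medians of 2215.5 and 1260 nt, and the part of total length in the result was not tested. RBM14 and RBM22 each entered with 2 rows. The shorter RBM14 row, a single exon of 3600 nt, counts among the 26 through its gene's coding exon of 1465 nt. Its own transcript starts too far downstream to hold that exon, so these counts misplace it.

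The 5 well-expressed members whose whole coding sequence lies in 1 exon, RBM12, RBM12B, HNRNPA0, HNRNPF and HNRNPH2, each had a peak in it. All 5 are among the members with a long coding exon counted above, so they add no separate evidence. The same share over all well-expressed rows of the table with 1 coding exon was not counted. HNRNPR, HNRNPU, SFRS4 and PTBP1 had a long coding exon but no peak in the coding sequence. The shorter row of RBM14 was counted with them by its gene, though its own transcript lacks the long coding exon. All 22 well-expressed members without a peak had a longest coding exon under 400 nt, with SFRS12 (363 nt) and SFRS2 (362 nt) closest to it. Among them were the most expressed members without a peak, HNRNPD (233 nt), HNRNPH1 (179 nt), HNRNPL (281 nt), SFRS9 (188 nt), RBM10 (231 nt), SFRS16 (288 nt), SFRS10 (189 nt), RBMX (308 nt) and SFRS7 (181 nt).

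**Figure D4:**
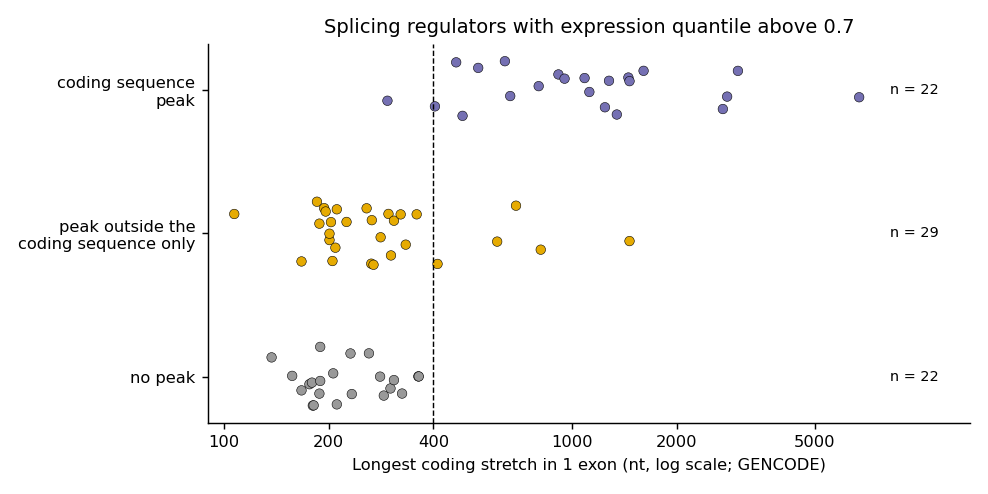
Longest coding stretch in a single exon (x axis, nt, log scale, from GENCODE) for the 73 member rows with an expression quantile above 0.7, by whether a coding sequence peak, a peak elsewhere only or no peak was listed (height within a row has no meaning). The dashed line is at 400 nt, and all 22 members without a peak lie to its left. Lengths are per gene, so the shorter RBM14 row is drawn at 1465 nt although its own transcript lacks that exon.

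HNRNPH1 and HNRNPH2 are near copies that differ in this respect. Their coding sequences are equal at 87.3% of 1347 aligned bases, but that of HNRNPH2 lies in 1 exon and that of HNRNPH1 in 12, the longest with 179 nt. HNRNPH1 was the more expressed (0.994 against 0.928), yet of this pair only HNRNPH2 had peaks. Their relative HNRNPH3, with 9 coding exons and the longest of 185 nt, had none in the coding sequence but did have the start and stop codon peaks given above. At the candidate site of the HNRNPH2 coding sequence peak, the aligned stretch of HNRNPH1 also held an RRACH, in an exon of 156 nt, with 20 of the 25 bases equal.
HNRNPH2: ctttgaagaaGGACAgagaaaccat
HNRNPH1: ccctgaaaaaAGACAgagaaactat
At the candidate sites of the 2 peaks of HNRNPF, the HNRNPH1 bases aligned to the pentamer did not form an RRACH (17 of 25 bases equal at each). Each of these HNRNPH1 stretches did hold an RRACH just upstream of those bases, AAACA at the first site and AGACC at the second. Reads from stretches equal in both genes may be assigned to either, so these comparisons are uncertain to that degree. The first stretch below is at position 664 of HNRNPF and the second at 1023, each followed by HNRNPH1.
HNRNPF: aagtcccacaGAACCgagatggatt
HNRNPH1: aagtcaaacaACGTTgaaatggatt
HNRNPF: gaccggcccgGGACTgccaggaggt
HNRNPH1: gacagacctgGGGCTggtagagggt

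SFRS2 and its retrocopy SFRS2B (SRSF8) were a further pair. Their coding sequences are equal at 84.7% of 654 aligned bases, in 2 exons for SFRS2 and in 1 for SRSF8. The retrocopy had 2 peaks at a quantile of 0.6998, and SFRS2 had none at 0.977. The coding sequence peak of SFRS2B scored 2.07, close to the lowest score listed. HNRNPA1L2 (0.571), whose coding sequence of 960 nt also lies in 1 exon, had no peak. HNRNPA1 (0.881), with 10 coding exons, had none either. The table splits SFRS2B into exons of 845 and 3486 nt within a span of 4333 nt, which leaves almost no room for an intron. The GENCODE model lacks this split, so the sites of SFRS2B were not placed on the sequence.

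Of the 27 member rows with 2 or more peaks, 16 had at least 2 in the same exon, and in 11 each peak lay in another exon. The same shares over all rows of the table were not counted. In 22 neighbouring pairs of member peaks within the same exon, the distance ran from 97 nt (HNRNPUL1) to 2150 nt (SRRM2), with a median of 489 nt, against 454.5 nt for 3500 pairs of other transcripts.

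**Figure D5:**
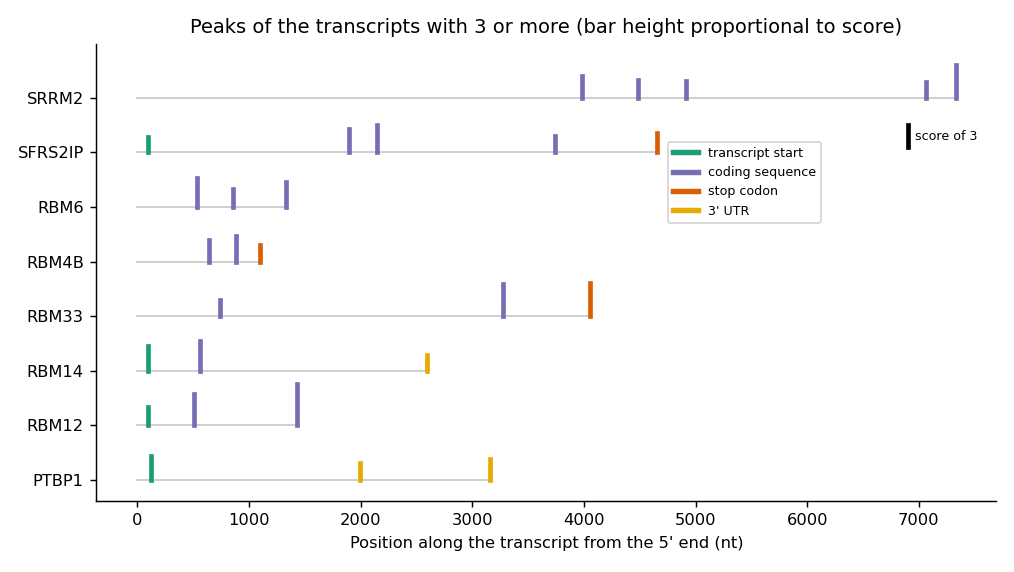
Peaks along the 8 member transcripts with 3 or more (x axis, nt from the 5' end), with bar height proportional to the authors' score and colour for the segment. The grey line runs to the last peak, not to the transcript's end. All 5 peaks of SRRM2 and all 3 of RBM6 lie in the coding sequence, and those of PTBP1 lie at the start and in the 3' UTR.

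The RRACH consensus was examined where the sequence could be placed. Only 4 member rows with 10 peaks matched a GENCODE transcript exactly, namely SRRM2, SFRS14, RBMX2 and the shorter RBM22 row. All 10 peaks had RRACH on the transcript strand within 50 nt (interval 72.2 to 100.0%), but so did all 19 windows of the same size 300 nt away on these transcripts. With RRACH in every window, the exact matches could not show a local excess at this size. Within 25 nt the counts were 9 of 10 peaks and 15 of 19 windows. GGACT, a form of the consensus often reported for m6A, was near 5 of the 10 peaks and in 1 of the 19 windows. Among other matched peaks of the table RRACH was near 89.98% and GGACT near 30.6%, against 76.7% and 9.77% of windows.

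Using the length of the first or last exon to place transcripts whose ends differ from GENCODE gave 67 member peaks in 39 rows. This way of matching was added after the files were seen. RRACH was near 58 (86.6%, 76.4 to 92.8%), against 89 of 114 windows (78.1%). GGACT was near 16 (23.9%, 15.3 to 35.3%), against 12 windows (10.5%), and near 28.5% of other peaks. Under the wider consensus DRACH, whose first base may be any but C, the shares were 86.6% of peaks and 87.7% of windows.

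Start peaks stood apart in this. RRACH was near 5 of 12 start peaks (41.7%, 19.3 to 68.05%) and near 53 of 55 others (96.4%, 87.7 to 99.0%). The 7 start peaks without it were those of HNRNPK, HNRNPM, HNRNPR, RBM12, RBM14, RBM39 and SFRS1. For other transcripts the shares were 64.2% and 93.9%. All 29 coding sequence peaks and all 10 peaks in the 3' UTR had it. The peaks without it outside the start were those of HNRNPU and HNRNPH3 at the stop codon. Outside the start, the closest RRACH with enough flanking sequence was a median of 10 nt from the listed position (51 peaks), and 29 of the 51 were within 10 nt. GGACT was the closest pentamer in 9 cases, followed by AGACA and GAACT with 7 each. Those 9 included the following, which show GGACT in a long coding exon of SRRM2 (positions 3985 and 4916), SFRS14 (529), HNRNPUL2 (248) and, above, HNRNPF.
SRRM2, position 3985: atcctacagtGGACTcgaattctct
SRRM2, position 4916: gatgggtctgGGACTccctcgaggc
SFRS14, position 529: tccgttctcaGGACTggaaatttgc
HNRNPUL2, position 248: ggcggggcctGGACTcgcgcggcct

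Splicing regulators outside the naming rule had peaks about as often as their expression gave. Of 42 such genes in the table, chosen for their function, 24 had a peak (57.1%), where their expression gave 24.3. Their 44 peaks had a median score of 2.93. The highest belonged to SON, a speckle scaffold like SRRM2, with 10 peaks in exon 3 (5916 nt) and a top score of 6.32. MBNL2, a regulator of tissue-specific exons, followed with 6.01 in the 5' UTR. DYRK1A, a kinase of splicing factors, had 5.47 at the stop codon and 5.13 in the 3' UTR. TIAL1, which binds U-rich sequences, had a top score of 4.57.

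Of the 7 SRPK and CLK kinases, which phosphorylate SR proteins, 4 had a peak, where their expression gave 4.23. SRPK1 (0.821) had 4 peaks, of 4.44 in exon 11 (420 nt), 3.89 and 3.68 in the 3' UTR and 2.09 at the start. SRPK2 (0.751) had 3.73 in the coding sequence, also in exon 11 (483 nt). CLK3 (0.886) and CLK2 (0.9504) had 2.55 and 2.00 at the stop codon, while CLK1 (0.747), CLK4 (0.611) and SRPK3 (0.598) had none.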

How the data were processed

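The deposited table holds no value per library, and its headers do not say which of the 7 libraries entered. Its columns are an expression quantile (a fraction of 0 to 1), a count of peaks per transcript, and each peak's score, position, exon and segment, all made by the authors and deposited as such. No aligner, peak caller or genome build is named in the sources used here, and depth per library is unknown. Members were selected by symbol prefix, and the members, the lists and the alternatives were chosen with earlier results of these data known. Named are the 10 highest-scoring members, those with 3 or more peaks, all SR, HNRNP, PTBP, CUGBP, ELAVL and TRA2 members, the 10 most expressed without a peak, and other rows with a peak. Rows on chromosome Y were counted but not named. Of other regulators, the 5 genes with the highest score (SON, MBNL2, DYRK1A, TIAL1, SRPK1) and the SR kinases are named. Most RBM rows without a peak were named after their values were seen.

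Sequences came from GENCODE release 29. A transcript was paired with a GENCODE one of the same gene (older symbols included) on the same chromosome and strand whose genomic span had the same length and whose exon number and length fitted every peak. In the added way of matching, the length of the first or last exon gave the offset of the transcript's ends (at most 300 nt at the 5' end, span explained to within 20 nt). Segments recomputed from GENCODE equalled the authors' for 71 of 73 member peaks so matched and for 97.97% of 9500 peaks of the table, and peaks with another segment were left out. The longest coding exon came from the gene's basic GENCODE transcript with the longest coding sequence, whichever transcript the row held. Matching and expected counts were tested on simulated data. Python 3.11.15, pandas 2.3.3, scipy 1.17.1 and Biopython 1.88 were used. No test across samples was possible, and alternatives are given in the closing section.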

Additional observations from a re-analysis of the deposited data

How the results depend on the processing

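The count of member rows with a peak was 53 in the table as a whole, 51 with 1 row per symbol and 42 with a score of at least 3, where 19.3% of all rows are called. The expected count from expression stayed between 52.7 and 53.9. The median score of 3.28 became 3.69 with the top peak of each row and 3.76 with scores of at least 3, both by construction. With scores of at least 3 the coding sequence share was 29.8%, and the share around the stop codon was 39.6% with the top peak of each row. Above a quantile of 0.9 the stop codon share was 18.2% and the start share 29.5%. The share of members with a long coding exon that had a coding sequence peak was 58.3% with 300 nt as the length (21 of 36, a wider set) and 81.8% with 500 nt, lengths chosen after the data were seen. RRACH was within 50 nt of 86.6% to 100.0% of peaks across the ways of matching. Within 25 nt it was near 9 of 10 peaks with exact matches, against 15 of 19 windows. With end exons it was within 25 nt of 75.0% of peaks (51 of 68), against 55.2% of windows (64 of 116). No paired analysis was possible because the table gives no value per library, which also keeps any replicate from being left out. Depth is unknown, so a missing peak is not evidence of an unmodified transcript.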

Other observations

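Some member peaks were listed more than once. The 2 rows of RBM22 share their last exon (1088 nt) and each has a stop codon and a 3' UTR peak that are 591 nt apart, with scores of 5.16 and 3.69 in one row and 4.93 and 3.31 in the other. In RBM14, the 3' UTR peak of the longer transcript (score 2.22) and the peak called as stop codon in the single-exon transcript (2.32) fall on the same base of the table's build, chromosome 11, 66151206. The segment of a peak there depends on which transcript is used.

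RBM34 (0.788) had the only member peak in the inner 5' UTR (score 3.46, exon 2 of 1209 nt) and a stop codon peak of 3.22 in exon 17. The table's transcript spans 62578 nt, while the GENCODE coding sequence of RBM34 has 11 coding exons, so both segments rest on the table's longer model.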
